A study of Homo sapiens with 10 samples.

Results

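Autotaxin is a secreted lysophospholipase D, encoded by *ENPP2*, that cleaves lysophosphatidylcholine outside the cell to the signaling lipid lysophosphatidic acid (LPA). LPA acts on G protein-coupled receptors of the *LPAR* family, through which it drives contraction, migration and growth, and membrane-bound lipid phosphate phosphatases of the *PLPP* family remove its phosphate and end the signal. Autotaxin was first isolated as a factor that stimulates the motility of melanoma cells, and in the breast it is made largely by adipose tissue.

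The mRNAs of 8 genes of this axis are described here in MDA-MB-231 cells under dasatinib, out of 36687 gene symbols in the deposited tables. The members are the enzyme gene *ENPP2*, the receptor genes *LPAR1*, *LPAR2*, *LPAR3* and *LPAR6*, and the phosphatase genes *PLPP1*, *PLPP2* and *PLPP3*. They were selected by gene symbol, on the rise of *ENPP2* in counts between 0 and 48 h, which was among the largest. All 8 passed the filter on low counts, which kept 15727 genes. The line is a model of triple-negative breast cancer of basal B type, and dasatinib inhibits kinases of the SRC family. Sequenced RNA came from 2 biological replicates each after 0, 6, 12, 24 and 48 h of dasatinib, 10 libraries in all, at 100 nM according to a figure legend of the study, since the sample labels give no dose. The 0 h samples carry sham in their titles but the drug in their treatment field, and served as untreated cells. Untreated cells of the later times are not among the samples, so that drug and time in culture cannot be told apart in any difference between times. All libraries come from 1 established cell line.

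Total counts ran from 40942913 to 49133774 per library. The 12 h replicate 1 stood apart, with a best correlation with another library of 0.955, against 0.983 to 0.987 for the others. Genes were tested with edgeR's quasi-likelihood test on the raw counts, in 1 fit over all genes and libraries, and a gene was called at a Benjamini-Hochberg adjusted p under 0.05. Differences are given as the log2 fold change (log2FC) with its standard error (SE). Levels are given as TPM, in which transcripts are scaled by length and library total. All 5 mesenchymal markers (*VIM*, *CD44*, *SPARC*, *AXL* and *MSN*) were at 25.6 TPM or more in every library, while *ESR1* was at 0.144 TPM or less and *PGR* at 0, and of the other luminal markers *KRT8* and *KRT18* were above 164 TPM, *GATA3*, *FOXA1* and *EPCAM* were between 4.80 and 16.0 TPM and *CDH1* was at 0.133 TPM or less.

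*ENPP2* mRNA was scarce in untreated and 6 h cells and highest at 48 h. Its level was 0.866 and 0.751 TPM at 0 h, 0.697 and 0.551 TPM at 6 h, 2.21 and 1.20 TPM at 12 h, 7.27 and 10.9 TPM at 24 h, and 23.5 and 28.5 TPM at 48 h. These values rest on 72 and 64 counts at 0 h, 58 and 50 counts at 6 h, 164 and 104 counts at 12 h, 694 and 862 counts at 24 h, and 2199 and 2302 counts at 48 h. Both 24 h libraries lay above all 6 earlier libraries, and both 48 h libraries lay above those of 24 h. In the order of genes listed above 0 TPM in a library, *ENPP2* stood at the 24.2 and 24.3 percentiles at 0 h, the 48.1 and 53.1 percentiles at 24 h, and the 67.9 and 70.7 percentiles at 48 h.

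Since the rise at 48 h chose this gene, the folds against 0 h and the step between 24 and 48 h are descriptions. After 6, 12, 24 and 48 h the log2FC of *ENPP2* against 0 h was −0.37 (SE 0.306), 0.95 (SE 0.286), 3.39 (SE 0.284) and 4.93 (SE 0.297), the last being 30.4-fold. Genes were ranked at 48 h if their average log2 CPM (counts scaled to library size) was at least 2 and both 48 h libraries lay beyond both 0 h libraries. Among 9155 ranked genes *ENPP2* was in position 5, between *CEMIP* at 5.18 and *SLITRK6* at 4.80. The step between 24 and 48 h was 1.54 on the log2 scale (SE 0.247).

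The comparison of 24 h with 6 h uses none of the libraries that chose the gene. There *ENPP2* averaged 9.06 ± 2.53 TPM at 24 h and 0.624 ± 0.103 TPM at 6 h (SD, n = 2 each). It rose by a log2FC of 3.76 (SE 0.291, edgeR adjusted p = 5.83e-05), or 13.5-fold, and the difference was far larger than the spread within either pair of replicates. Between these times 4 of the 8 members were called, *ENPP2*, *LPAR1* and *PLPP1* higher and *PLPP2* lower, against 18.6% of all genes tested (9.0% higher and 9.65% lower).

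**Figure D1:**
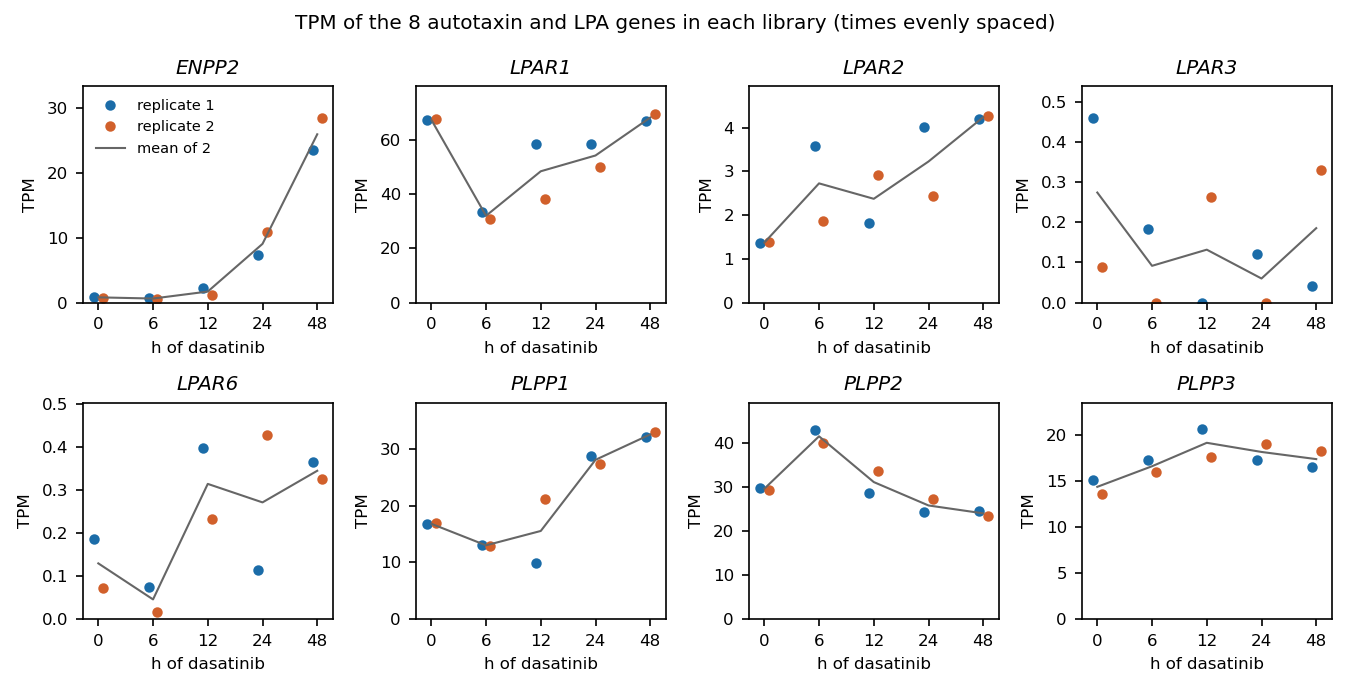
TPM of the 8 genes (y axes, each from 0) after 0, 6, 12, 24 and 48 h of dasatinib (x axes, times evenly spaced, 0 h untreated). Points are the 2 replicates and lines join their means. *ENPP2* reaches 23.5 and 28.5 TPM at 48 h, *LPAR1* is lowest at 6 h with 33.3 and 30.6 TPM, and *LPAR3* and *LPAR6* stay under 0.5 TPM throughout.

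In GRCh38 *ENPP2* occupies bases 119557086 to 119673453 of chromosome 8, read from the minus strand, and it shares 2.41% of its annotated exonic bases with the processed pseudogene *CYCSP23* on the same strand. Within 500 kb on either side, 22 other genes are annotated, 12 are in the deposited tables and 5 could be tested. Of these neighbours, only *DSCC1*, which takes part in loading the replication clamp, was called at 24 h against 0 h, and it was lower. Its level was 34.3 and 39.6 TPM at 24 h, against 80.8 and 83.5 TPM at 0 h, a log2FC of −1.25. *TAF2*, which encodes a subunit of the general transcription factor TFIID and is the nearest of the 5 on one side, was at 33.9 and 31.6 TPM at 24 h, against 33.5 and 33.7 TPM at 0 h. *CCN3*, the nearest on the other side, was at 40.2 and 36.7 TPM at 24 h, against 39.3 and 40.7 TPM at 0 h, while its levels of 50.9 and 51.0 TPM at 6 h put it lower at 24 h than at 6 h by a log2FC of −0.50 (edgeR adjusted p = 0.0304). *MAL2* and *DEPTOR* were not called in any of the 6 comparisons.

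The genes whose levels followed *ENPP2* most closely were sought by the Pearson correlation of log2 CPM over the 10 libraries, among 10888 tested genes whose average log2 CPM reached 2. The 6 highest were *ITFG1* (0.995), *SPRY4* (0.995), *SPRED2* (0.994), *SCIN* (0.994), *RUFY3* (0.993) and *NET1* (0.991). *SPRY4* and *SPRED2* encode inhibitors of the Ras to ERK cascade, *SCIN* an actin-severing protein and *NET1* a guanine nucleotide exchange factor. After 0, 6, 12, 24 and 48 h *SCIN* averaged 8.02, 6.02, 10.1, 29.9 and 51.3 CPM, and *NET1* 134, 129, 178, 392 and 617 CPM. The 10 points are not independent, since they share 5 times. By rank correlation *SCIN* was number 3, *SPRY4* was number 19, and the other 4 stood lower.

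Adipocytes, which make autotaxin in the breast, and other cell types were checked by their markers. Of 7 adipocyte markers, *ADIPOQ* and *LEP* were at 0 in every library, and the summed level was 17.8 to 21.1 TPM at 48 h, against 3.22 to 3.94 TPM at 0 h. Nearly all of this difference was *FABP4*, a fatty acid-binding protein gene, with means of 16.1 TPM at 48 h and 0.351 TPM at 0 h. The sum of 6 fibroblast markers was 3.38 to 3.71 TPM at 48 h, against 3.73 to 4.04 TPM at 0 h. Most of it was *COL1A1*, with means of 3.43 TPM at 48 h and 3.85 TPM at 0 h, while *COL1A2*, *DCN* and *LUM* were each under 0.1 TPM. Against 0 h edgeR called *COL1A1* higher at 12 h (log2FC 0.65, adjusted p = 0.0282) and at no other time. Among 5 endothelial markers the sum was 3.89 to 4.87 TPM at 48 h, against 0.957 to 1.45 TPM at 0 h, most of it *PECAM1*, while *CDH5* and *VWF* stayed under 1 TPM. Of 5 oligodendrocyte markers only *MBP* reached 1 TPM and *MOG* was at 0, with sums of 20.5 to 21.3 TPM at 48 h and 11.2 to 11.7 TPM at 0 h. The 6 haematopoietic markers summed to at most 0.581 TPM in any library. At 24 h, when *ENPP2* was already higher, the adipocyte sum was 4.52 to 6.41 TPM. The endothelial sum was then 3.37 to 3.68 TPM and the oligodendrocyte sum 20.97 to 21.33 TPM. At that time edgeR called *FABP4* (log2FC 2.15, adjusted p = 0.0479), *PECAM1* (1.62, adjusted p = 0.0103) and *MBP* (0.80, adjusted p = 0.00271) higher than at 0 h. It also called *FABP4* higher at 6 h (3.57, adjusted p = 0.0183), and each of these genes at 12 h. *FABP4* had 6 counts in each 0 h library and 14 and 44 counts at 24 h. The part of *FABP4*, *PECAM1* and *MBP* in the rise of *ENPP2* was not tested. In these bulk samples, fewer cells of a type and less RNA per cell cannot be told apart.

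Among the receptors, *LPAR1* was by far the highest. *LPAR1* encodes the most widely expressed LPA receptor, which couples to Gi, Gq and G12/13 proteins, and its locus is bases 110873263 to 111038470 of chromosome 9, minus strand. The level was 67.1 and 67.6 TPM at 0 h, 33.3 and 30.6 TPM at 6 h, 58.5 and 38.2 TPM at 12 h, 58.4 and 49.9 TPM at 24 h, and 66.9 and 69.3 TPM at 48 h. Both 6 h libraries were thus at less than 50% of either untreated library, and the 48 h libraries were within 3 TPM of them. At 6 h *LPAR1* fell by a log2FC of −1.07 (SE 0.166, edgeR adjusted p = 0.00865). It was the only member called at 6 h, when 2.73% of all genes tested were called (1.24% higher and 1.49% lower).

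*LPAR1* rose again between 6 and 24 h, by a log2FC of 0.67 (SE 0.165, edgeR adjusted p = 0.0188). The differences from 0 h of −0.59 at 12 h (adjusted p = 0.0587) and −0.40 at 24 h (adjusted p = 0.120), and the step of 0.34 from 24 to 48 h (adjusted p = 0.343), did not pass. At 48 h the value was −0.06 (SE 0.163), from a contrast that the choice of genes used. The fall at 6 h kept its size but lost its call without any 1 of the 0 h and 6 h libraries, where the log2FC was −1.04 to −1.08 and the adjusted p 0.0723 to 0.122. The rise to 24 h lost its call without 6 h replicate 1 (0.68, adjusted p = 0.102), 6 h replicate 2 (0.64, adjusted p = 0.133) or 24 h replicate 1 (0.51, adjusted p = 0.175). Conversely, without either 12 h library *LPAR1* was called lower at 12 and 24 h. Without 12 h replicate 1 its log2FC was −0.86 at 12 h and −0.40 at 24 h. More of all genes were called too without a 12 h library, as given below. With all libraries, *LPAR1* was also called at 12 h by DESeq2 (adjusted p = 0.0245) and by edgeR with no filter on low counts (adjusted p = 0.00418). At 24 h edgeR on the 24 h and 0 h libraries alone called it (adjusted p = 0.00234).

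The promoter of *LPAR1*, the receptor gene that carries the early change, follows as RefSeq gives it for GRCh38.p14 at chr9:111038421-111038720 on the minus strand, with 250 bases before the start site and 50 from it. Capitals mark GC box matches (GGGCGG on either strand).
LPAR1: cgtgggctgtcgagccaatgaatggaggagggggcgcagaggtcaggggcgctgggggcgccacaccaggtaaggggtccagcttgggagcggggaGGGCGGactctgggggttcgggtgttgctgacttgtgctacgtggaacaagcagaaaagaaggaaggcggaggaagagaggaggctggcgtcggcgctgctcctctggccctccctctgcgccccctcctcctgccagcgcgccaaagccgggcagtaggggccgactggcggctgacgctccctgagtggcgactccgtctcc
The window is 68.3% G and C and holds 1 GC box, a motif found in 45.0% of 35116 promoter windows of that length. It holds no match to the ETS motif CCGGAAGT (in 4.14% of windows) or to an AP-1 motif (TGANTCA, 7.71%). Nor does it hold a TEAD motif (GGAATG, 14.0%) or a TATA box (TATAAA, 11.5%). All were searched on both strands. Shorter forms, such as the GGAA within the ETS letters, were not searched.

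*LPAR2*, a receptor with similar coupling that is often raised in tumors, was low. Its level was 1.36 and 1.38 TPM at 0 h, 3.59 and 1.87 TPM at 6 h, 1.83 and 2.92 TPM at 12 h, 4.01 and 2.45 TPM at 24 h, and 4.21 and 4.28 TPM at 48 h. Every treated library was above both untreated libraries, but the replicates at 6, 12 and 24 h differed from each other by more than 1 TPM. The log2FC values of 0.99 at 6 h (adjusted p = 0.285), 0.70 at 12 h (adjusted p = 0.327) and 1.16 at 24 h (edgeR adjusted p = 0.0788) did not pass. DESeq2 called *LPAR2* at 24 h (adjusted p = 0.0427), as did edgeR with no filter on low counts (adjusted p = 0.0206) or on the 24 h and 0 h libraries alone (adjusted p = 0.0160). The value at 48 h was 1.56 (SE 0.415). Once 12 h replicate 1 or replicate 2 was left out, *LPAR2* was called both at 6 h (0.99) and at 24 h (1.16), when more of all genes were called too. The gene spans 19623655 to 19628930 on chromosome 19, on the minus strand.

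*LPAR3* and *LPAR6* were the members with the fewest reads. *LPAR3*, a receptor that prefers unsaturated forms of LPA and lies on chromosome 1, had 20 and 4 counts at 0 h, 8 and 0 counts at 6 h, 0 and 12 counts at 12 h, 6 and 0 counts at 24 h, and 2 and 14 counts at 48 h. *LPAR6*, a receptor distant in sequence from the first 3, had 10 and 4 counts at 0 h, 4 and 1 counts at 6 h, 19 and 13 counts at 12 h, 7 and 22 counts at 24 h, and 22 and 17 counts at 48 h. No change in either gene was called at any time. *LPAR6* occupies bases 48389567 to 48444704 of chromosome 13, inside the *RB1* locus but on the opposite strand, and shares no annotated exonic base with it. *RB1* averaged 70.8 ± 0.910 TPM at 48 h and 81.8 ± 0.478 TPM at 0 h (SD, n = 2 each).

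The remaining receptors of the family are not among the 8 members. *LPAR4* had 0 to 8 counts per library and did not pass the filter. *LPAR5*, which is also activated by other lipids, was the second receptor in level. It had 5.32 and 4.96 TPM at 0 h, 6.97 and 7.09 TPM at 6 h, and 7.01 and 6.91 TPM at 12 h. Later it had 8.86 and 13.7 TPM at 24 h, and 9.42 and 10.9 TPM at 48 h. It was higher at 24 h by a log2FC of 1.04 (SE 0.222, edgeR adjusted p = 0.00878), and this call was lost without 24 h replicate 2 (0.73, adjusted p = 0.110), 0 h replicate 1 (1.09, adjusted p = 0.0568) or 0 h replicate 2 (0.97, adjusted p = 0.0796).

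Summed over all 6 receptor genes, the level was 74.4 and 74.1 TPM at 0 h, 44.2 and 39.7 TPM at 6 h, 67.7 and 48.7 TPM at 12 h, 71.5 and 66.5 TPM at 24 h, and 81.0 and 85.1 TPM at 48 h. The sum followed *LPAR1*, whose share of it was 90.2% and 91.2% in the 0 h libraries, 75.4% and 77.1% in the 6 h libraries and 82.7% and 81.4% in the 48 h libraries. On average *LPAR1* had 6.71 times the TPM of *LPAR5* at 48 h and 13.1 times at 0 h.

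**Figure D2:**
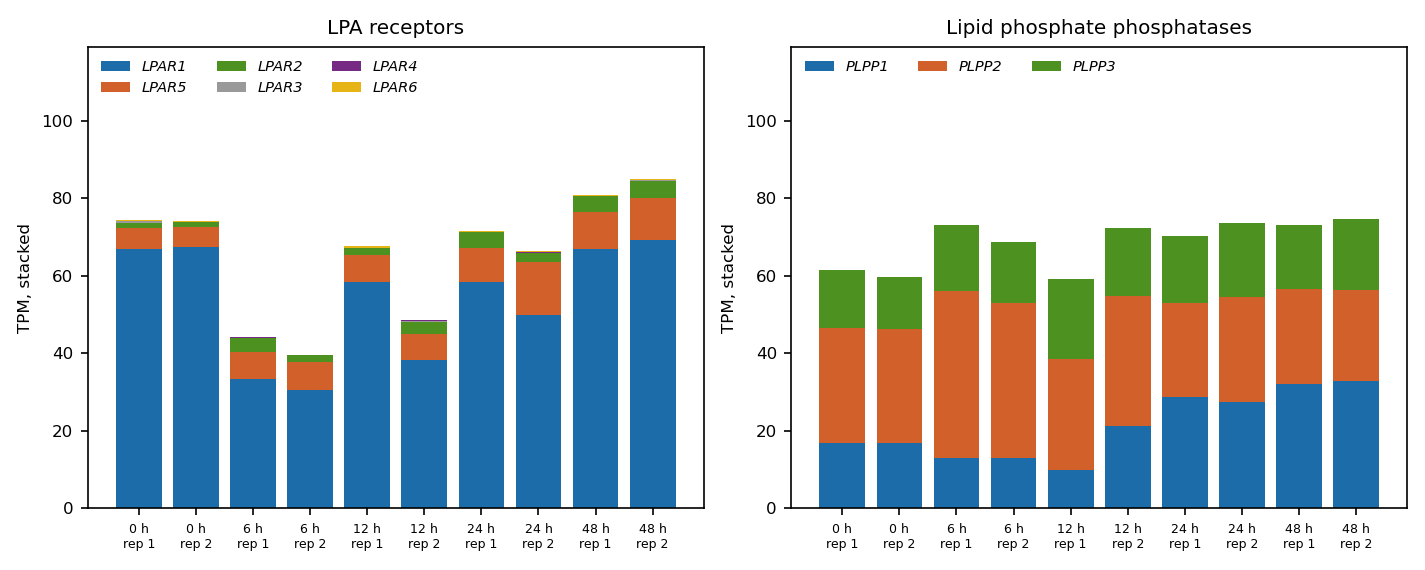
TPM of the LPA receptor genes (left) and of *PLPP1*, *PLPP2* and *PLPP3* (right), stacked for each of the 10 libraries (x axes, in order of hours of dasatinib; rep is the replicate). The receptor sum is lowest at 6 h, at 44.2 and 39.7 TPM, and the phosphatase sum lies between 59.2 and 74.7 TPM throughout while the share of *PLPP1* grows to 44.0% and 44.2% at 48 h.

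The 3 phosphatase genes encode integral membrane ectoenzymes that dephosphorylate LPA and related lipid phosphates. Their summed level was 73.1 and 74.7 TPM at 48 h, against 61.6 and 59.8 TPM at 0 h, but its makeup differed. *PLPP1* made up 44.0% and 44.2% of the sum at 48 h, against 27.2% and 28.3% at 0 h, and *PLPP2* made up 33.5% and 31.4% at 48 h, against 48.4% and 49.0% at 0 h. *PLPP1* was thus above *PLPP2* in every 24 and 48 h library and below it in every earlier one.

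*PLPP1* had 16.7 and 16.9 TPM at 0 h, 13.1 and 12.9 TPM at 6 h, 9.99 and 21.1 TPM at 12 h, 28.8 and 27.5 TPM at 24 h, and 32.2 and 33.0 TPM at 48 h. All late libraries lay above all early ones, and the 12 h replicates fell on either side of the untreated level. The rise between 6 and 24 h had a log2FC of 1.01 (SE 0.297, edgeR adjusted p = 0.0395). This call was lost without any 1 of the 0, 6, 24 or 48 h libraries, with log2FC values of 0.94 to 1.07 and adjusted p of 0.0715 to 0.196. Against 0 h the value was 0.65 at 24 h, which did not pass (adjusted p = 0.155). It passed in edgeR with no filter on low counts (adjusted p = 0.0187) and on the 24 h and 0 h libraries alone (adjusted p = 0.00139). It also passed without 12 h replicate 1 or replicate 2 (0.65 each), when more of all genes were called too. At 48 h against 0 h the log2FC was 0.88 (SE 0.295). *PLPP1* occupies bases 55424854 to 55534969 of chromosome 5, minus strand, and shares 24.9% of its exonic bases with *MTREX* on the opposite strand and 4.75% with the processed pseudogene *RNF138P1* on its own. The sources used here do not give the strand setting of the counting. *MTREX* itself had a log2FC of −0.18 between 6 and 24 h (adjusted p = 0.521).

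*PLPP2* moved the other way, with 29.8 and 29.3 TPM at 0 h, 42.9 and 40.0 TPM at 6 h, 28.6 and 33.6 TPM at 12 h, 24.4 and 27.2 TPM at 24 h, and 24.5 and 23.4 TPM at 48 h. The 6 h libraries were the 2 highest of the 10. *PLPP2* fell between 6 and 24 h, with a log2FC of −0.79 (SE 0.130, edgeR adjusted p = 0.00266), a call that held with any 1 library left out. The value of 0.50 at 6 h against 0 h did not pass (adjusted p = 0.0809), though DESeq2 called it (adjusted p = 0.0142). So did edgeR without 12 h replicate 1 or replicate 2 (0.50 each). The value at 24 h was −0.29 (adjusted p = 0.153) and passed without 12 h replicate 1 or replicate 2 (−0.29 each). More of all genes were called too without a 12 h library. It also passed with edgeR on the 24 h and 0 h libraries alone (adjusted p = 0.0142). The value at 48 h was −0.37 (SE 0.130). The gene occupies bases 281040 to 291403 of chromosome 19, minus strand.

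*PLPP3*, at bases 56494761 to 56645301 of chromosome 1, shares 10.9% of its exonic bases with a protein-coding gene on the same strand that has no symbol in the annotation. It was the steadiest member, with 13.6 to 20.6 TPM over the 10 libraries. After 6, 12, 24 and 48 h its log2FC against 0 h was 0.22, 0.31, 0.25 and 0.20, with an SE of 0.127 each, and it was not called at any time. Without 12 h replicate 2, when more of all genes were called too, it passed at 12 h in edgeR (0.36).

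**Figure D3:**
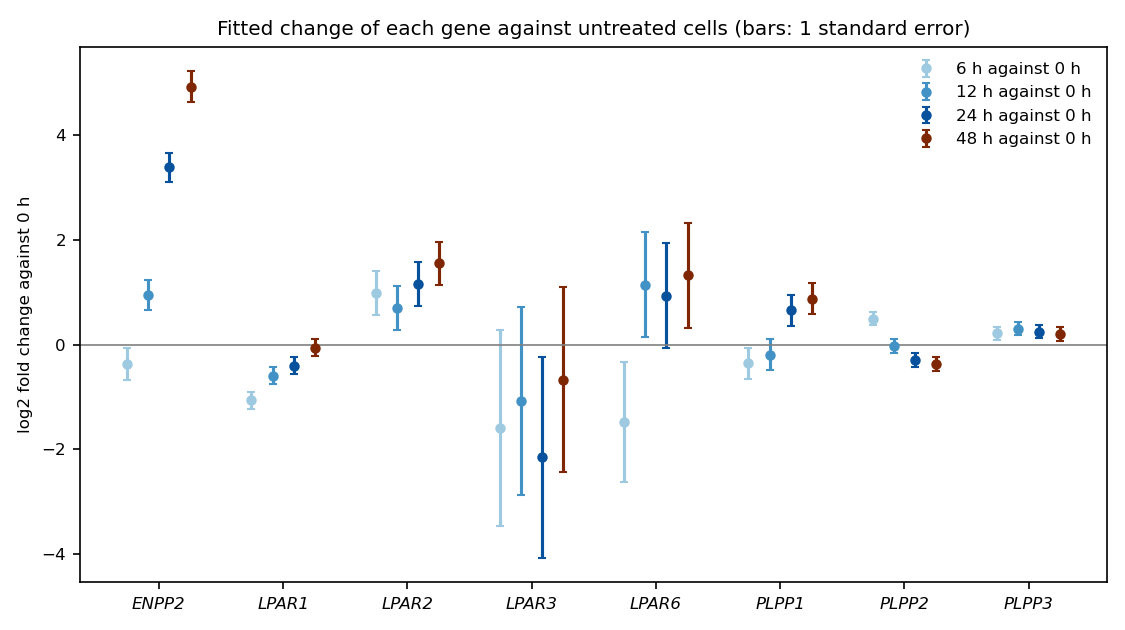
Log2 fold change (y axis) of each of the 8 genes (x axis) after 6, 12, 24 and 48 h of dasatinib against untreated cells, from edgeR, with bars of 1 standard error. *ENPP2* reaches 3.39 and 4.93 at 24 and 48 h, *LPAR1* has −1.07 at 6 h, *PLPP1* and *PLPP2* diverge, and the wide bars of *LPAR3* and *LPAR6* reflect 0 to 22 counts per library.

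Counted over the members, 0 of 8 were called at 12 h by edgeR, against 7.15% of all genes (3.93% higher and 3.22% lower). In that fit 3 members had an unadjusted p under 0.05, as had 3842 of the 15727 genes tested. DESeq2 called 2 members at 12 h, *ENPP2* and *LPAR1*, against 13.1% of all genes. At that time edgeR called 1 member lower without 12 h replicate 1, against 16.9% of all genes in that fit, and 2 higher and 2 lower without 12 h replicate 2, against 44.9%, so that these counts are near the share of all genes. At 24 h against 0 h, *ENPP2* was the only member past the threshold, against 20.0% of all genes (9.73% higher and 10.2% lower), and without either 12 h library edgeR called 5, *ENPP2*, *LPAR2* and *PLPP1* higher and *LPAR1* and *PLPP2* lower, against 40.3% and 39.6% of all genes called in those fits. At 48 h against 0 h, *ENPP2*, *LPAR2* and *PLPP1* were past it, against 32.3% of all genes (16.0% higher and 16.3% lower), in the contrast that the choice of genes used. Between 24 and 48 h *ENPP2* alone was past it, against 3.18% of all genes (1.89% higher and 1.28% lower). The calls of *ENPP2* against 0 h and between 24 and 48 h share libraries with the contrast that chose it, and are descriptions.

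*ENPP2* belongs to the ecto-nucleotide pyrophosphatase/phosphodiesterase (ENPP) family, most members of which cleave nucleotides rather than lysolipids. Of the other 6 family genes 4 could be tested, and at 24 h against 0 h *ENPP1* and *ENPP3* were higher. *ENPP1* makes pyrophosphate from extracellular ATP and restrains mineralization. Its level was 22.0 and 23.7 TPM at 0 h, 17.8 and 17.9 TPM at 6 h, 29.4 and 18.9 TPM at 12 h, 61.2 and 62.3 TPM at 24 h, and 177 and 184 TPM at 48 h, so that like *ENPP2* it was highest at 48 h, at several times the TPM of *ENPP2*. It rose by a log2FC of 1.35 at 24 h against 0 h (SE 0.156, edgeR adjusted p = 0.000372), by 1.69 between 6 and 24 h (adjusted p = 0.000153) and by 1.56 between 24 and 48 h (adjusted p = 0.00155). Its call at 24 h held under each of the 19 alternatives.

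*ENPP3*, the next gene on chromosome 6, ends 60597 bases before *ENPP1* starts on the same strand. It had 1 and 0 counts at 0 h, 4 and 0 counts at 6 h, 34 and 9 counts at 12 h, 20 and 24 counts at 24 h, and 62 and 110 counts at 48 h, and its call at 24 h (adjusted p = 0.0320) was lost without any 1 of the 0, 24 or 48 h libraries (adjusted p = 0.0572 to 0.183) and with limma on log2(TPM + 1) (adjusted p = 0.351). *ENPP5* had 12 and 8 counts at 0 h, 20 and 4 counts at 6 h, 0 and 16 counts at 12 h, 50 and 75 counts at 24 h, and 126 and 140 counts at 48 h. It was past the threshold at 48 h alone. *ENPP4*, which hydrolyses diadenosine triphosphate, was at 25.4 and 25.2 TPM at 48 h, against 19.7 and 19.9 TPM at 0 h, and was not called at any time.

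The promoter of *ENPP1*, the family gene with the highest level at 48 h, is given by RefSeq for GRCh38.p14 at chr6:131807770-131808069 on the plus strand, again with 250 bases before the start site and 50 from it. Capitals mark GC box matches, which overlap in 1 stretch.
ENPP1: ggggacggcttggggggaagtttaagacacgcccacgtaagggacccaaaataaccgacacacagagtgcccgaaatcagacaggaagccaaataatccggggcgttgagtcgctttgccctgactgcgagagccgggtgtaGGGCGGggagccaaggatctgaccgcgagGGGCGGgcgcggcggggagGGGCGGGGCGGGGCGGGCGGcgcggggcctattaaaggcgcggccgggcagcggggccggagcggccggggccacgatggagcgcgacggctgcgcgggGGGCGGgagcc
The window is 71.3% G and C and holds 7 GC boxes. Like that of *LPAR1* it has no match to the full ETS, AP-1, TEAD or TATA letters searched there.

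**Figure D4:**
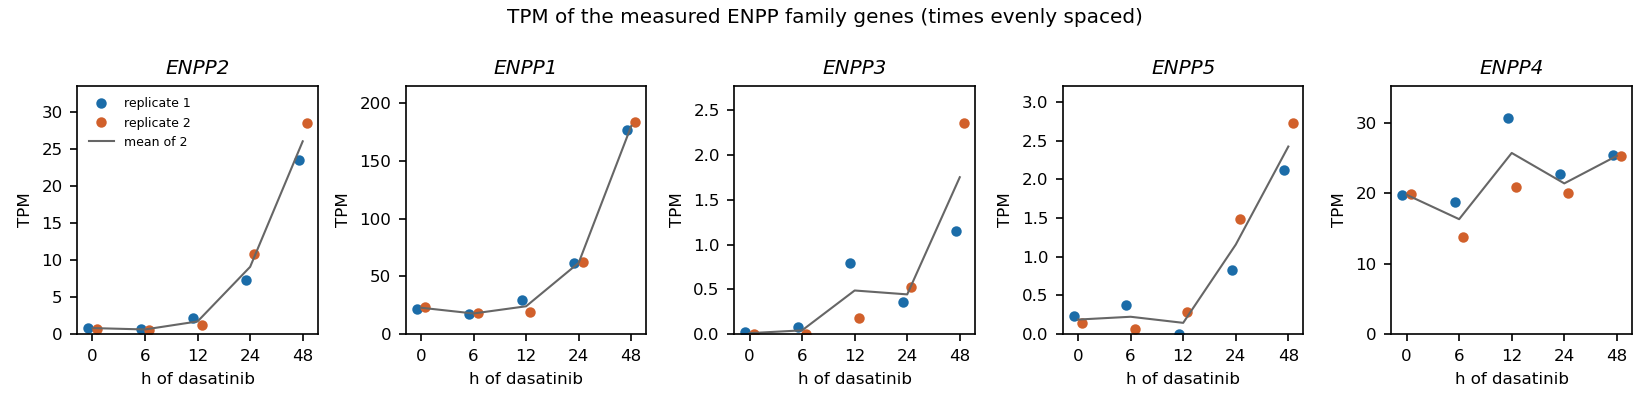
TPM (y axes, each from 0) of *ENPP2* and of the 4 other ENPP family genes that could be tested, after 0, 6, 12, 24 and 48 h of dasatinib (x axes, times evenly spaced). Points are the 2 replicates and lines join their means. *ENPP1* reaches 177 and 184 TPM at 48 h and *ENPP2* 23.5 and 28.5 TPM, while *ENPP3* and *ENPP5* stay under 3 TPM.

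LPA is also made by other routes inside cells and at their surface, such as from phosphatidic acid or glycerol 3-phosphate. Of 13 tested genes of enzymes that make LPA or its precursors by other routes, 4 were called at 24 h, each of them higher. Of all genes 9.73% were called higher and 10.2% lower, the shares beside which each list count at 24 h stands. *PLD1*, a phospholipase D that makes phosphatidic acid, was at 5.64 and 6.61 TPM at 24 h, against 2.02 and 1.65 TPM at 0 h, a log2FC of 1.65 (SE 0.199, edgeR adjusted p = 0.000461). *LIPH*, which cleaves phosphatidic acid to LPA at the cell surface, was at 16.4 and 15.9 TPM at 24 h, against 8.50 and 8.18 TPM at 0 h (0.86, adjusted p = 0.00230), and reached 24.7 and 26.1 TPM at 48 h. The phospholipase A2 gene *PLA2G6* had 1.16 (adjusted p = 0.0108), which was lost without 24 h replicate 2 (0.85, adjusted p = 0.126) or either 0 h library (adjusted p = 0.105 and 0.0527), and *PLD2* was the fourth. The median log2FC of the 13 genes was 0.35 at 24 h, beside 0.02 over all genes. Without 12 h replicate 1, 4 were called higher and 2 lower at 24 h, against 40.3% of all genes called in that fit.

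Of 9 genes of enzymes that acylate LPA or other lysophospholipids, *AGPAT5* alone was called at 24 h. It was at 30.5 and 28.1 TPM at 24 h, against 45.0 and 45.7 TPM at 0 h, a log2FC of −0.71 (edgeR adjusted p = 0.00538). The call was lost under 2 of the 19 alternatives, among them that without 24 h replicate 2 (−0.63). Among 5 other genes of the lipid phosphate phosphatase family, *PLPP5* alone was called at 24 h. It was at 15.9 and 18.3 TPM at 24 h, against 10.05 and 9.98 TPM at 0 h (0.68, adjusted p = 0.0265), a call lost without any 1 of the 0, 6, 24 or 48 h libraries (adjusted p = 0.0510 to 0.174).

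Below the receptors, 2 of 11 G protein alpha subunit genes were called at 24 h, close to the 20.0% of all genes. *GNAI1*, a Gi subunit, was at 14.9 and 13.6 TPM at 24 h, against 8.19 and 8.49 TPM at 0 h (log2FC 0.69, edgeR adjusted p = 0.00316). *GNAI3*, another Gi subunit with much higher levels, was at 125 and 115 TPM at 24 h, against 146 and 153 TPM at 0 h (−0.40, adjusted p = 0.0346), and this call was lost without any 1 of the 0, 6, 24 or 48 h libraries (adjusted p = 0.0654 to 0.282).

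Sphingosine 1-phosphate is a related lysolipid that the same phosphatases can dephosphorylate. Of 11 tested genes of its synthesis, export and receptors, *SPHK1*, a kinase that makes it, was the only one called at 24 h against 0 h. It was at 11.2 and 13.8 TPM at 24 h, 26.3 and 26.1 TPM at 6 h and 18.7 and 18.2 TPM at 0 h. The fall between 6 and 24 h had a log2FC of −1.17 (edgeR adjusted p = 0.00339) and lost its call without 24 h replicate 1 (adjusted p = 0.0530). The call against 0 h (−0.66, adjusted p = 0.0464) was lost without any 1 of the 0, 6, 24 or 48 h libraries (adjusted p = 0.0736 to 0.279).

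Genes that LPA is known to induce in other cells changed early and mostly downward. Of 20 tested, 6 were called at 6 h and 11 at 12 h, and each of them was lower, against 1.49% and 3.22% of all genes called lower. After 6, 12, 24 and 48 h their median log2FC was −0.57, −1.05, −0.20 and 0.13, beside medians of all genes between 0.000694 and 0.0212. At 24 h 2 were higher and 6 lower. Under some alternatives genes of the list were called higher at 6 h too, and under none at 12 h. Many of these genes respond to other signals too, and several, such as *ANKRD1*, *CCN1* and *CCN2*, are targets of YAP.

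*ANKRD1* was at 793 and 864 TPM at 0 h, 182 and 185 TPM at 6 h, 161 and 171 TPM at 12 h, 267 and 274 TPM at 24 h, and 396 and 415 TPM at 48 h. Its log2FC was −2.16 at 6 h (edgeR adjusted p = 1.53e-05) and −1.70 at 24 h. *EGR1*, an immediate early transcription factor, was at 196 and 187 TPM at 0 h, 50.2 and 48.4 TPM at 6 h, 67.5 and 68.4 TPM at 12 h, 143 and 181 TPM at 24 h, and 142 and 138 TPM at 48 h. Both were lowest early, as was *CCN2*, with −2.03 at 6 h (adjusted p = 0.000235) and −0.95 at 24 h.

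Of the 2 higher genes at 24 h, *PTGS2*, the inducible cyclooxygenase gene, was at 13.4 and 14.3 TPM at 24 h, against 8.30 and 8.58 TPM at 0 h (log2FC 0.62, edgeR adjusted p = 0.0243), and *IER3* had 0.65 (adjusted p = 0.0455). Without 24 h replicate 2 these were 0.61 (adjusted p = 0.131) and 0.42 (adjusted p = 0.349), and without 0 h replicate 2 they were 0.62 (adjusted p = 0.125) and 0.41 (adjusted p = 0.324). Over the alternatives, between 3 and 11 genes of the list were called lower at 6 h, between 0 and 17 at 12 h, and between 3 and 10 at 24 h. The 3 at 6 h came without either 6 h library, and the 0 at 12 h with edgeR on the 12 h and 0 h libraries alone, where 0 of all genes were called and 1615 had an unadjusted p under 0.05. The 11 at 6 h came without either 12 h library, among other alternatives, when 19.4% and 19.0% of all genes were called, and the 17 at 12 h without 12 h replicate 2, when 44.9% were.

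**Figure D5:**
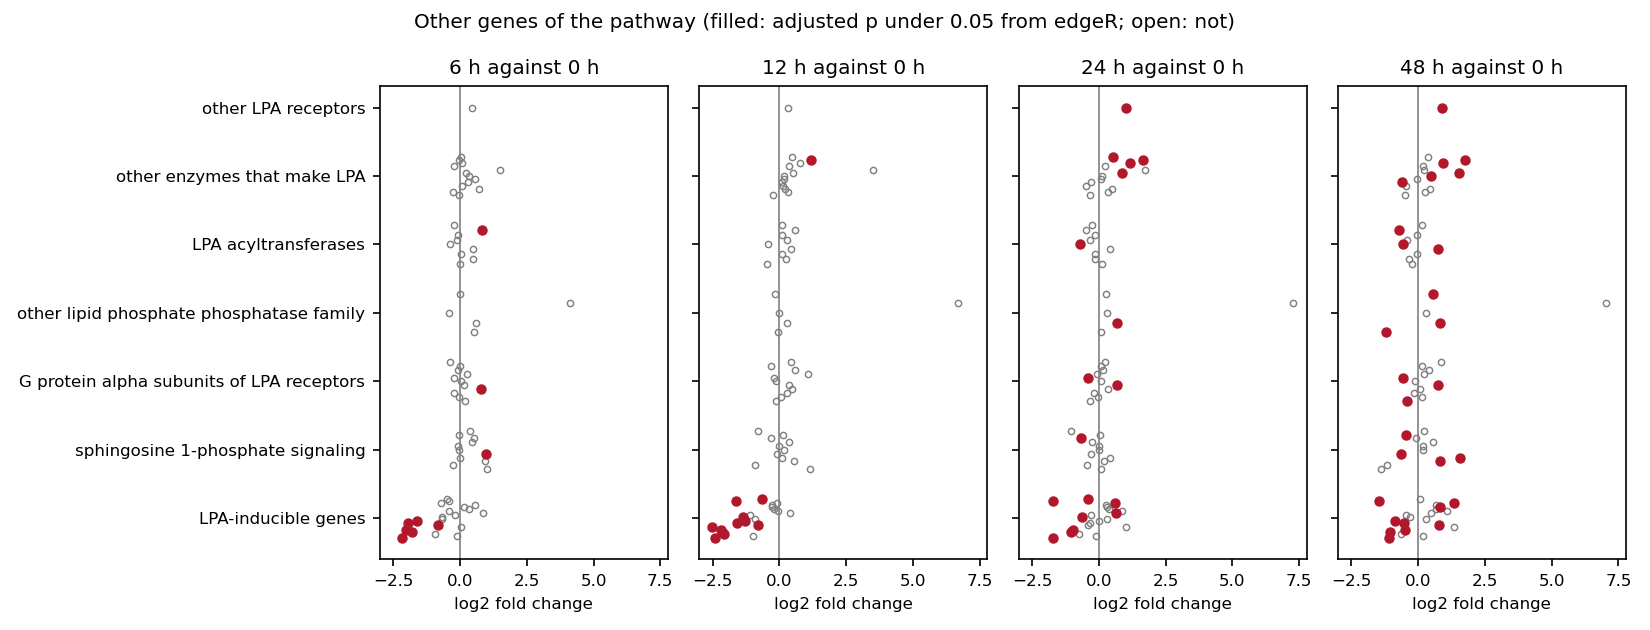
Log2 fold change (x axes) of each tested gene of 7 related lists (y axis) after 6, 12, 24 and 48 h of dasatinib against untreated cells. Filled points had an adjusted p under 0.05 from edgeR and open points did not. The LPA-inducible genes hold 6 filled points at 6 h and 11 at 12 h, all left of 0, and the open point to the far right among the phosphatase genes is *PLPP7*, with 0 counts in both 0 h libraries, so that its fitted value is no measure of size.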

How the data were processed

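The study measured total RNA from MDA-MB-231 cells by paired-end sequencing (150 bases). Per the labels and the study's methods, the authors used FastQC and MultiQC for read quality, Trim Galore for trimming, STAR 2.5.2b for alignment to hg38 and featureCounts for counts per gene. The deposited tables hold raw counts and TPM, a length-scaled unit the authors computed by a step not given in the sources used here. The annotation and strand setting are not given there either. Low counts are mostly even (73.7% to 84.3% of counts between 6 and 21), so halved counts were added as an alternative after the data were seen.

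Groups came from the labels. Raw counts were fitted with edgeR 4.0.16 in R 4.3.3 (filter on low counts by group, TMM, robust quasi-likelihood) over all 10 libraries, with 6 comparisons (each time with 0 h, 24 h with 6 h, 48 h with 24 h). Deposited TPM were used for levels and, with pseudocounts of 1 and 0.1 and a minimum of 1 TPM in 2 libraries, in limma 3.58.1. DESeq2 1.42.0 was another alternative. Replicates are labelled biological, with no further detail. CPM are scaled by TMM.

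The members and lists were chosen with earlier results of these data known. Named genes are all members, from every list the 3 called genes of lowest adjusted p per direction at 24 h against 0 h, the 6 most correlated with *ENPP2*, its neighbours within 500 kb and *RB1*. *CCN1*, *EGR1*, *ENPP4*, *ENPP5*, *LPAR4* and *PLD2* were named after their values were seen. A gene of the LPA-inducible list and a list of genes below the receptors are not reported here. Gene coordinates and overlaps are from GENCODE, and promoters from RefSeq, where 5 of the 7 members outside chromosome 8 had a window within 5 bases of the GENCODE start. Proteins were not used here.

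On simulated data for 24 h against 0 h (15350 genes) edgeR recovered 8.96% of 67 genes changed 1.5-fold, 53.7% of 67 changed 2-fold and 74.2% of 66 changed 4-fold, with 6 false calls. No other gene was changed there, whereas 3143 genes were called in the data, so that these shares need not hold for the data.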

Additional observations from a re-analysis of the deposited data

Results flagged for a closer look

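In 4 of the 8 genes the difference from 0 h was not the same at 24 h as at 6 h, by the direct test of 24 h against 6 h in edgeR, which cancels the shared 0 h libraries and in which 18.6% of all genes were called. Drug and time in culture cannot be told apart in this comparison either. The log2 difference was 3.76 for *ENPP2* (adjusted p = 5.83e-05), 0.67 for *LPAR1* (adjusted p = 0.0188), 1.01 for *PLPP1* (adjusted p = 0.0395) and −0.79 for *PLPP2* (adjusted p = 0.00266). In each of these genes both 24 h libraries lay on the same side of both 6 h libraries.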

How the results depend on the processing

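With 2 libraries per time, few calls were firm. Over 876 values of a member in a comparison under an alternative, 779 kept their direction and side of the threshold, 37 lost the call, 40 gained it and 20 turned direction. In what follows, a number alone in brackets is the count of all genes called in the same fit. The number of members called at 6 h was 1 (430). It was 2 with no filter on low counts (910), DESeq2 (959) or the 2 groups alone (2966), and 0 with limma on log2(TPM + 1) with no filter (176). At 12 h it was 0 (1124), and 2 with no filter (2336) or DESeq2 (2064) and 1 with the replicate block (1030). At 24 h it was 1 (3143), and 3 with no filter (3845), 2 with DESeq2 (3851) and 5 with the 2 groups alone (6485). Between 6 and 24 h it was 4 (2933), and 2 with limma on log2(TPM + 1) with no filter (2038). Between 24 and 48 h it was 1 (500), and 2 with the 2 groups alone (3805), and 0 with limma on log2(TPM + 0.1) (365) or on log2(TPM + 1) with no filter (227). With 1 library left out, which leaves a group of 1 assumed to vary like the others, the counts were 0 to 3, 0 to 4, 1 to 5 and 1 to 4 after 6, 12, 24 and 48 h, 2 to 4 between 6 and 24 h and 0 to 2 between 24 and 48 h. Between 6 and 24 h *ENPP2* passed under each of the 19 alternatives.

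No pairing of the libraries by replicate number was seen, though 2 libraries per time cannot exclude one. Over 10 pairs of same-numbered libraries the correlation of deviations from the group means was −0.0368 to 0.104, with 1 over 0.1, and the replicate block changed the members called only at 12 h, where *LPAR1* passed (−0.61, adjusted p = 0.0395). The turned directions were small or rested on few counts. With limma *PLPP2* at 12 h was 0.0653 and 0.0672 (main −0.03) and *LPAR1* at 48 h 0.0164 and 0.0167 (main −0.06). With 1 library left out *PLPP1* at 12 h ran from −0.92 to 0.28, *PLPP2* at 12 h from −0.21 to 0.14, *LPAR2* between 6 and 24 h from −0.28 to 0.65, and *PLPP3* between 6 and 24 h from −0.00787 to 0.0587. *LPAR6* ran from −0.24 to 1.76 at 24 h and from −0.26 to 1.57 between 24 and 48 h. For *LPAR3* the range was −6.69 to 0.0112 (6 h), −6.68 to 0.52 (12 h), −2.72 to 0.93 (48 h), −5.07 to 4.52 between 6 and 24 h, and −0.54 to 6.00 between 24 and 48 h. *LPAR3* and *LPAR6* rest on 0 to 22 counts per library.

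Over all genes, 430, 1124, 3143 and 5077 were called after 6, 12, 24 and 48 h (59 to 3205, 0 to 7559, 1216 to 6665 and 2913 to 8364 over the alternatives), 2933 between 6 and 24 h (1120 to 6885) and 500 between 24 and 48 h (17 to 3805). The 0 at 12 h came with edgeR on the 2 groups alone, where 1615 genes had an unadjusted p under 0.05, whereas DESeq2 over the 10 libraries called 2064. Of 21 named list genes called at 24 h, 9 were called under every alternative. With halved counts 7 of the 8 members passed the filter and the number called was within 1.5 times.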
